A study of Mus musculus with 81 samples.

Results

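The genes described here encode 39 enzymes and enzyme subunits that carry glucose carbon to pyruvate, to lactate and through the tricarboxylic acid (TCA) cycle. They were listed by enzyme name, with earlier results of these data known. All 39 were found among the 57010 gene identifiers of the 3 count matrices, matched to symbols through a Gencode mouse annotation. RNA was sequenced from CA1 pyramidal neurons (CA1 PNs), CA3 pyramidal neurons (CA3 PNs) and dentate gyrus granule cells (DGCs) that had been cut by laser from Nissl-stained sections of rostral hippocampus. The mice were Ts65Dn males (Ts), which carry an additional small chromosome with part of mouse chromosome 16 and the centromeric end of chromosome 17, and disomic males of the same breeding (2N), all at about 6 MO. Their dams ate chow with a normal choline content (ChN, 1.1 g/kg) or a supplemented one (ChP, 5.0 g/kg) through gestation and until weaning, and all offspring then ate the normal chow.

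The 81 libraries came from 28 mice, of which 6 were 2N ChN, 6 Ts ChN, 7 2N ChP and 9 Ts ChP. CA1 PNs were represented by 6, 5, 7 and 9 libraries of these groups in that order, CA3 PNs by 6, 6, 7 and 7, and DGCs by 6, 6, 7 and 9. The 3 populations were cut from the same mice, so comparisons between populations were made within mice. All comparisons are between bulk captures, in which fewer cells of a type and less RNA per cell cannot be told apart. The mice come from a mixed-background colony bred from Ts mothers, and the diet was given to the dam, so pups of 1 litter share it. The litter of each mouse is not given in the sources used here.

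Glycolysis splits glucose into pyruvate in the cytosol and yields ATP and NADH without oxygen. Lactate dehydrogenase interconverts pyruvate and lactate, whereas the pyruvate carrier and the pyruvate dehydrogenase complex bring pyruvate into mitochondria as acetyl-CoA, which the TCA cycle oxidises to supply the respiratory chain. Neurons spend most of this ATP on ion pumping after synaptic activity and firing, and several of the steps have isozymes with different kinetics or regulation.

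The libraries held from 625249 to 4744036 expected counts in the ChN mice and from 358355 to 2559173 in the ChP mice. Levels are CPM, counts scaled to a common library size with the trimmed mean of M-values (TMM). Ratios, shares and sums of members are in TPM, which also divide by transcript length. Sums of markers are CPM by library total. Some libraries went against their labels. Mouse 15-145 gave a CA3 PN library with a Ts label and 2 libraries with 2N labels, and all were grouped as 2N. In that CA3 PN library the triplicated chromosome 16 genes lay within the 2N range of CA3 PNs, whose 13 libraries spanned -0.33 to -0.18 against 0.21 to 0.36 in 13 Ts libraries, as medians over 51 genes of the log2 deviation from the population's mean. The CA1 PN library of 2N mouse 17-154 lay at 0.29 on this scale, as Ts libraries did, while its CA3 PN and DGC libraries lay at -0.23 and -0.27. The CA1 PN library of Ts ChP mouse 16-272 lay at -0.10. Markers also set some CA1 PN captures apart. In the CA1 PN library of mouse 17-21 the 6 CA1 markers summed to 75.8 CPM against a 2N ChN median of 1710, and 7 CA2 markers to 1930. In all, 10 CA1 PN libraries had over 500 CPM of CA2 markers, mice 17-154, 17-21 and 16-272 among them, and counts of members called between CA1 PNs and the other populations are given with and without these 10, a choice made after seeing the data. The 5 CA3 markers also summed to as much as 507 CPM in 2N ChN CA1 PN libraries, against a median of 13.8 CPM. The CA3 PN libraries of that group had 557 to 682 CPM. In Ts ChN, 2N ChP and Ts ChP the highest CA1 PN libraries had 321, 508 and 566 CPM of CA3 markers.

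The 39 enzymes were abundant. Their median level was 113 CPM in the 2N ChN mice, against 16.9 CPM over the 14973 genes tested, with no division by transcript length. Summed over the 39 genes, the 2N ChN median was 4044 TPM in CA1 PNs (2310 to 5996, n = 6), 7381 TPM in CA3 PNs (2927 to 9771, n = 6) and 3517 TPM in DGCs (3230 to 4719, n = 6). The 14 glycolytic enzymes from hexokinase to pyruvate kinase held most of this, with 2536, 5143 and 2235 TPM in the same order, and the 13 TCA cycle genes held 1020, 1477 and 847 TPM. The sums of CA1 PNs and DGCs overlapped. Those of CA3 PNs overlapped with DGCs only through the library of mouse 15-145 at 2927 TPM. That library and the next, mouse 15-147 at 5762 TPM, lay below the highest CA1 PN library. In CPM, the CA3 PN ranges given below for Hk1, Pfkp and Aldoa include mouse 15-145 and lie above both other populations. The CA1 PN library of mouse 17-21, poor in CA1 markers, had 5996 TPM, and the next below it 4687 TPM. No member lies on chromosome 16 or 17, and 4 (Idh3g, Pdha1, Pdk3 and Pgk1) lie on the X chromosome.

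The question that the shared sections allow is how the 3 populations differ in these enzymes. CA3 PNs had the highest levels for most of the pathway and DGCs the lowest. In the 2N ChN mice, 29 of 39 members exceeded their DGC level in CA3 PNs and 2 lay below it at an adjusted p under 0.05 (edgeR quasi-likelihood test with mouse as a block, Benjamini-Hochberg over all genes), where 21.8% of all genes tested were higher and 21.5% lower. The median log2 fold change (LFC) was 0.87 over the members and -0.05 over all genes. CA1 PNs exceeded DGCs in 24 members and fell below them in none, against 17.3% and 16.6% of all genes, with medians of 0.52 and -0.04. CA1 PNs fell below CA3 PNs in 14 members and exceeded them in 1, against 12.2% and 10.9% of all genes, with medians of -0.32 and -0.00. The CA1 to CA3 count moved the most when a mouse was left out, from 9 without mouse 15-147 to 21 called members. Scaling by library totals instead of TMM moved the median of all genes for CA3 PNs over DGCs to -0.24 and left the members 0.92 above it, as with TMM.

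**Figure D1:**
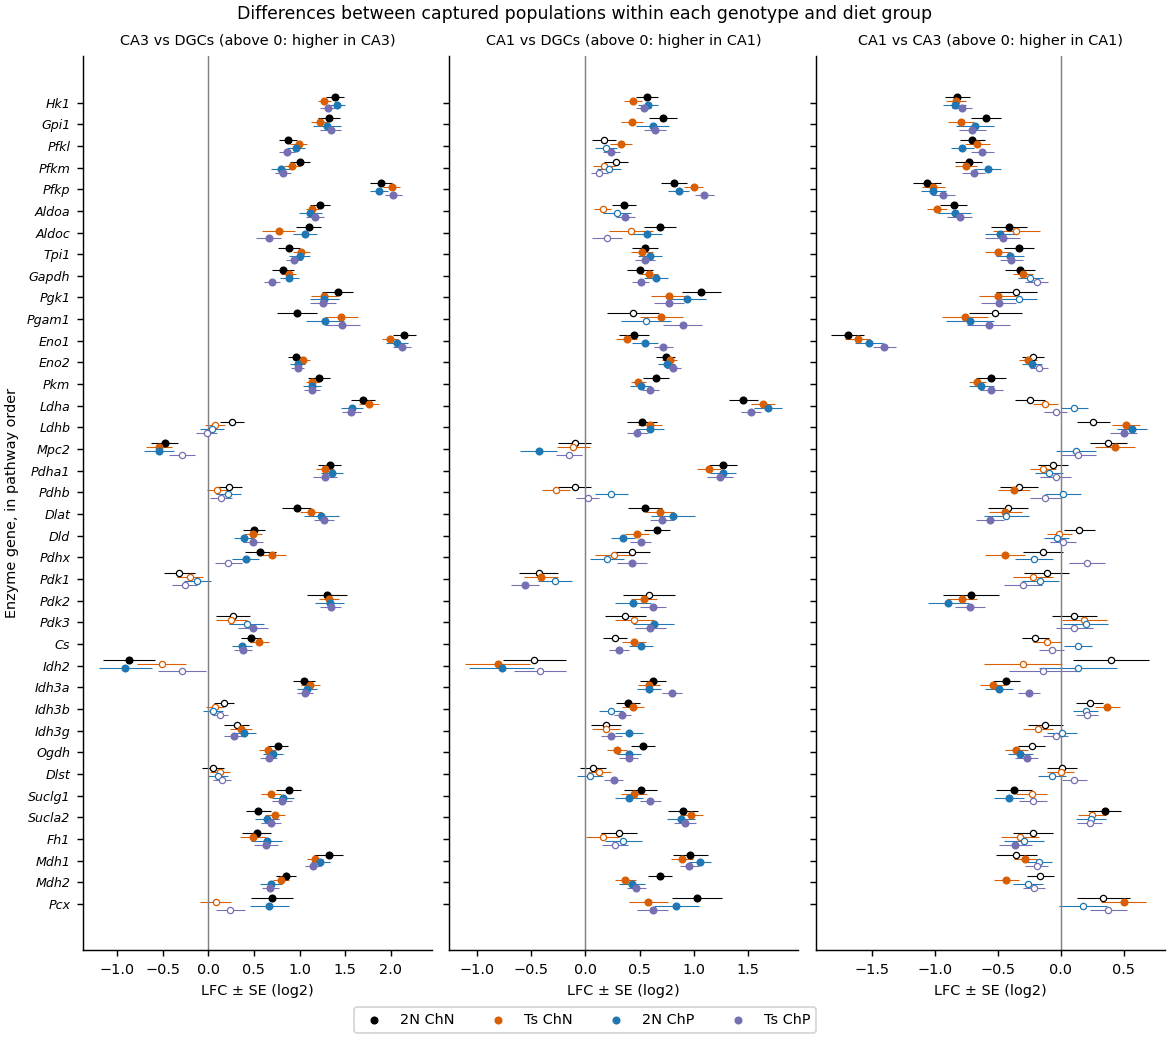
Differences between populations for 38 of the 39 genes, in pathway order from top to bottom (Suclg2, near 0 CPM, is left out). The x axes give the LFC (log2) with its standard error as a bar, above 0 when the first-named population was higher. Colours mark the 4 genotype and diet groups, filled points an adjusted p under 0.05 and open points the rest. In the panel of CA3 PNs against DGCs nearly all points lie to the right of 0, and Eno1 and Pfkp lie farthest, at 1.99 to 2.15 and 1.87 to 2.03 over the groups.

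The order held in the other groups, where each comparison was fitted on its own mice. CA3 PNs exceeded DGCs in 29 members in Ts ChN, 30 in 2N ChP and 29 in Ts ChP, and fell below them in 1, 2 and 0. The matching shares of all genes were 22.4%, 21.7% and 22.0% higher and 22.8%, 20.3% and 21.4% lower. CA1 PNs exceeded DGCs in 26, 26 and 31 members (17.8%, 17.5% and 20.2% of all genes) and fell below them in 2, 2 and 1 (16.8%, 15.5% and 19.1%). CA1 PNs fell below CA3 PNs in 21, 16 and 17 members (13.3%, 13.0% and 13.0%) and exceeded them in 4, 1 and 1 (12.4%, 11.6% and 12.5%). In all 4 groups, 27 members were called higher in CA3 PNs than in DGCs, 21 higher in CA1 PNs than in DGCs and 11 in which CA1 fell below CA3 PNs. No member was called in opposite directions in different groups. Scaling by library totals changed the split of calls by over 10 points in 3 of these comparisons. It gave 3 higher and 14 lower for CA1 against CA3 PNs in 2N ChP, 4 and 14 in Ts ChP, and 26 higher and 3 lower for CA3 PNs against DGCs in Ts ChP. Without the 10 CA2-rich libraries, CA1 fell below CA3 PNs in 22 members and exceeded them in 0 in the 2N ChN mice, and CA1 PNs exceeded DGCs in 20 and fell below them in 0. The other groups moved the same way. CA1 fell below CA3 PNs in 24, 23 and 22 members in Ts ChN, 2N ChP and Ts ChP without these libraries and exceeded them in 3, 1 and 2. CA1 PNs exceeded DGCs in 25, 19 and 24 members and fell below them in 1, 1 and 0. The median LFC of the members for CA1 PNs over DGCs went from 0.55 to 0.28 in 2N ChP, the group in which it moved most.

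Markers of other cells differed between the captures as well. The summed level of 6 astrocyte markers in the 2N ChN mice was 416 to 621 CPM in CA1 PNs, 1880 to 2670 CPM in CA3 PNs and 786 to 1100 CPM in DGCs, with none of the 6 at 0 in median. Slc1a2 had an LFC of 1.67 for CA3 PNs over DGCs, Aqp4 of 1.28, Gja1 of 1.03 and Aldh1l1 of 2.12, all called, whereas Gfap at 0.47 and Slc1a3 at -0.00 were not. For CA1 over CA3 PNs the LFC was -2.38 for Slc1a2 and -1.47 for Gfap. It was -0.79 for Aqp4, -0.58 for Gja1 and -0.42 for Slc1a3, and each of these was called. Aldh1l1, at 0.10, was not called. Oligodendrocyte markers summed to a median of 162, 305 and 190 CPM in CA1 PNs, CA3 PNs and DGCs. Astrocytes express many of the same enzymes, and the part of these cells in the differences between populations was not tested.

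The first steps of glycolysis separated CA3 PNs from both other populations. All 7 members from hexokinase to aldolase were called higher in CA3 PNs than in DGCs in every group, and for 6 of them (all but Aldoc) CA1 PNs were called below CA3 PNs in every group. Hk1, the main hexokinase of brain, which traps glucose in the cell as its phosphate, was measured at 573, 635 and 665 CPM in CA3 PNs (lowest, median and highest of 6 2N ChN libraries). It lay at 291, 354 and 416 CPM in CA1 PNs and at 218, 232 and 246 CPM in DGCs, so the 3 populations did not overlap. The LFC was 1.39 ± 0.10 (SE) for CA3 PNs over DGCs, -0.82 ± 0.10 for CA1 over CA3 PNs and 0.57 ± 0.10 for CA1 PNs over DGCs, with adjusted p of 8.30e-15, 1.31e-08 and 1.13e-05 (edgeR). Gpi1, glucose phosphate isomerase, had 477, 541 and 590 CPM in CA3 PNs, 289, 309 and 575 CPM in CA1 PNs and 185, 210 and 230 CPM in DGCs. The CA1 PN library of mouse 17-21 was the one that reached into the CA3 range.

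Phosphofructokinase, the main control point of glycolysis, has 3 subunit genes that are named for platelet (Pfkp), liver (Pfkl) and muscle (Pfkm), and all are expressed in brain. Pfkp had 359, 378 and 431 CPM in CA3 PNs, 154, 166 and 268 CPM in CA1 PNs and 82.5, 104 and 116 CPM in DGCs, with no overlap between the 3. Its LFC for CA3 PNs over DGCs was 1.89 ± 0.12, against 0.87 ± 0.10 for Pfkl and 1.01 ± 0.11 for Pfkm. In TPM, Pfkp made up 39.7% of the 3 subunits in CA3 PNs (35.9 to 47.0%), 36.1% in CA1 PNs (31.3 to 37.7%) and 23.0% in DGCs (15.1 to 28.7%), as medians of 6 libraries. Pfkl was the most abundant of the 3 in DGCs, with 43.7% (37.2 to 45.8%). Between CA1 PNs and DGCs, Pfkm was called in no group and Pfkl in 2 of 4.

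Aldolase splits the hexose into triose phosphates. Aldoa, the most abundant member in TPM (CA3 PN median 1825), had 1780, 2055 and 2170 CPM in CA3 PNs, 904, 1006 and 1630 CPM in CA1 PNs and 750, 848 and 909 CPM in DGCs. CA3 PNs did not overlap with either of the other populations, while CA1 PNs and DGCs met at 904 and 909 CPM. Aldoc, the brain aldolase that in textbooks marks astrocytes and some Purkinje cells, had 83.7, 98.2 and 111 CPM in CA3 PNs, 55.0, 68.8 and 89.4 CPM in CA1 PNs and 35.8, 40.6 and 64.5 CPM in DGCs. Neighbouring populations overlapped for Aldoc. The TPM ratio of Aldoa to Aldoc had a median of 31.6 in CA3 PNs against 20.0 in CA1 PNs and 28.5 in DGCs.

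**Figure D2:**
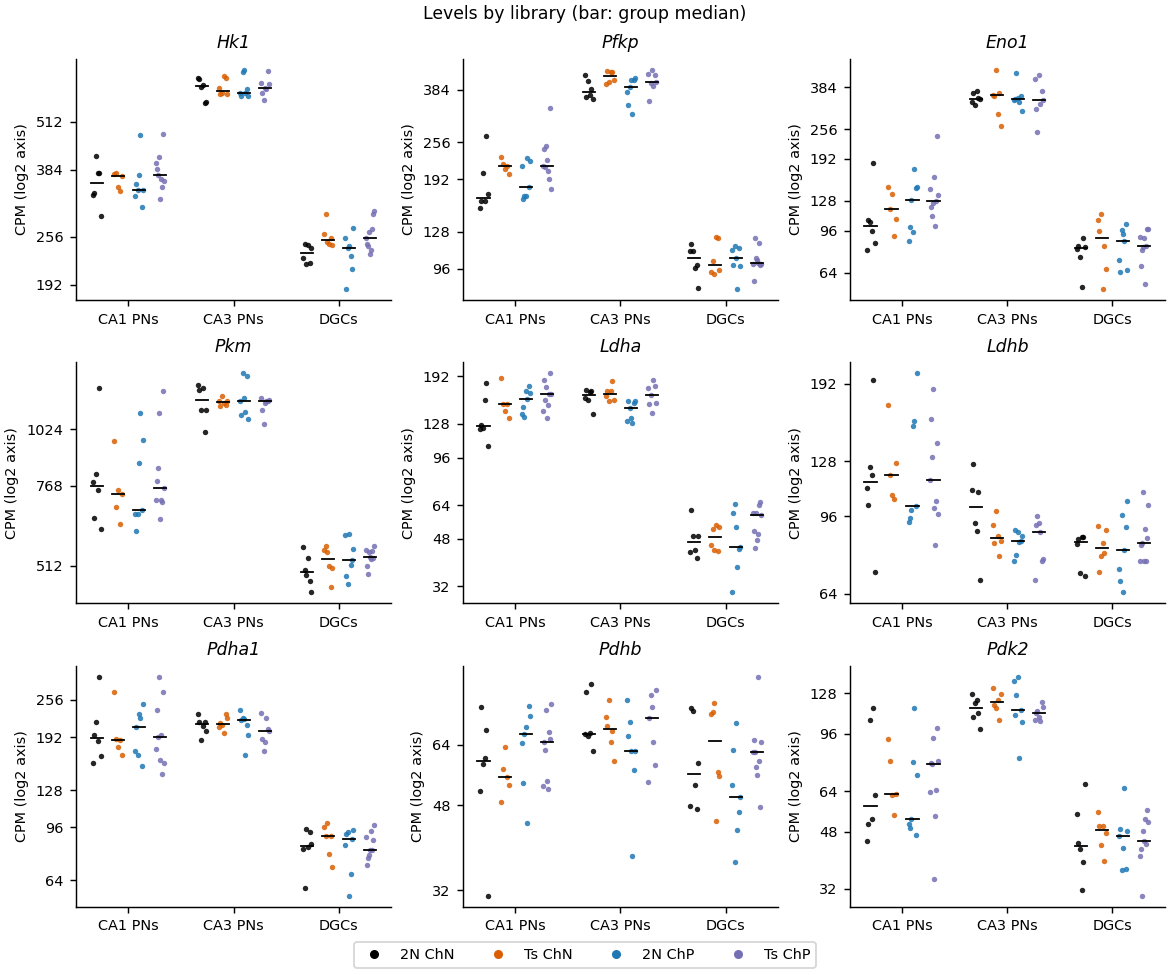
CPM (log2 axes) of 9 genes in each library, by population along the x axis and by genotype and diet in colour, with a bar at each group median. For Hk1, Pfkp and Pkm CA3 PNs sit at the top and DGCs at the bottom, Ldha and Pdha1 have CA1 and CA3 PNs together above DGCs, Eno1 and Pdk2 stand out in CA3 PNs, and Ldhb and Pdhb span much the same range in the 3 populations.

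The steps from triose phosphates to pyruvate were called higher in CA3 PNs than in DGCs for all 7 members in all 4 groups. Eno1 had the largest difference of any of the 39 genes between CA3 PNs and the other populations. It encodes the enolase of most tissues, and neurons are known for the other enolase, Eno2. Eno1 had 324, 344 and 371 CPM in CA3 PNs, 80.1, 100 and 184 CPM in CA1 PNs and 56.0, 81.4 and 89.2 CPM in DGCs, so every CA3 PN library lay above every other library of the group. The LFC was 2.15 ± 0.13 for CA3 PNs over DGCs (adjusted p = 4.60e-16, edgeR) and -1.69 ± 0.13 for CA1 over CA3 PNs (adjusted p = 5.69e-13, edgeR). Over the 4 groups these ran from 1.99 to 2.15 and from -1.69 to -1.40. Eno2 had 849, 946 and 997 CPM in CA3 PNs, 679, 830 and 937 CPM in CA1 PNs and 435, 469 and 541 CPM in DGCs, and CA1 and CA3 PNs differed at an adjusted p under 0.05 in 2 of 4 groups. The TPM ratio of Eno1 to Eno2 was 0.367 in CA3 PNs (0.296 to 0.427), 0.158 in CA1 PNs (0.0922 to 0.216) and 0.199 in DGCs (0.120 to 0.243), and the CA3 PN libraries did not overlap with the others. Eno1 has a near-identical copy, Eno1b, so the division of reads between them is uncertain.

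Among the other genes of these steps, Pkm, whose pyruvate kinase makes the pyruvate, had 1010, 1190 and 1280 CPM in CA3 PNs, 616, 768 and 1260 CPM in CA1 PNs and 447, 494 and 562 CPM in DGCs. DGCs did not overlap with either pyramidal population. Pgk1, which recovers the first ATP of the pathway, had medians of 70.7, 48.5 and 24.8 CPM in CA3 PNs, CA1 PNs and DGCs. Its LFC for CA1 PNs over DGCs of 1.07 ± 0.18 was the largest of this step in that comparison. Tpi1, the triose phosphate isomerase, had 272, 215 and 147 CPM, Gapdh, which reduces NAD, 350, 265 and 204 CPM, and the mutase Pgam1 31.1, 22.0 and 14.8 CPM, as medians in the same order. Pgam1 had an LFC of 0.97 ± 0.22 for CA3 PNs over DGCs, with an adjusted p of 3.80e-04 (edgeR).

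The 2 subunit genes of lactate dehydrogenase behaved differently from each other. Ldha encodes the subunit that predominates in muscle, and Ldhb the one that predominates in heart. Ldha had 139, 164 and 171 CPM in CA3 PNs, 106, 126 and 182 CPM in CA1 PNs and 40.9, 46.5 and 61.4 CPM in DGCs. All pyramidal libraries lay above all DGC libraries, and CA1 and CA3 PNs overlapped. The LFC was 1.70 ± 0.13 for CA3 PNs over DGCs (adjusted p = 7.68e-14, edgeR) and 1.46 ± 0.13 for CA1 PNs over DGCs (adjusted p = 1.30e-11, edgeR), the largest of all members in the latter comparison. CA1 and CA3 PNs were called different in no group, with an LFC between -0.24 and 0.11.

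Ldhb had 68.6, 101 and 126 CPM in CA3 PNs, 71.6, 115 and 196 CPM in CA1 PNs and 70.2, 84.0 and 86.1 CPM in DGCs, and the 3 ranges overlapped. CA3 PNs and DGCs were called different in no group (LFC from -0.02 to 0.26), whereas CA1 PNs exceeded DGCs in all 4 (0.48 to 0.60). The TPM ratio of Ldha to Ldhb was 1.74 in CA3 PNs (1.58 to 2.36), 1.19 in CA1 PNs (0.921 to 1.35) and 0.597 in DGCs (0.438 to 0.903). Its ranges did not overlap between the populations in the 2N ChN mice. In the other 3 groups the medians were 1.65 to 1.75 in CA3 PNs against 1.20 to 1.29 in CA1 PNs and 0.556 to 0.683 in DGCs, so the ratio was above 1 at the median in pyramidal neurons and below 1 in DGCs in each group. The ranges stayed apart in Ts ChN but not in the ChP mice. In 2N ChP that of CA1 PNs (0.834 to 1.53) overlapped with CA3 PNs (1.49 to 2.14) and with DGCs (0.339 to 0.929). In Ts ChP the range of CA1 PNs (1.09 to 1.61) overlapped with that of CA3 PNs (1.58 to 2.56).

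The sequences before the Ldha and Ldhb start sites are printed because these genes are the clearest case of members of one enzyme with different patterns. They are the 250 bases upstream of the start site in RefSeq (GRCm38.p6), 5′ to 3′ on the gene's strand, at chr7:46845554-46845803 (plus strand) and chr6:142507958-142508207 (minus strand). Capitals mark ACGTG or its reverse complement CACGT, the core letters of E-box and hypoxia response elements, and the matches on both strands overlap in CACGTG.
Ldha: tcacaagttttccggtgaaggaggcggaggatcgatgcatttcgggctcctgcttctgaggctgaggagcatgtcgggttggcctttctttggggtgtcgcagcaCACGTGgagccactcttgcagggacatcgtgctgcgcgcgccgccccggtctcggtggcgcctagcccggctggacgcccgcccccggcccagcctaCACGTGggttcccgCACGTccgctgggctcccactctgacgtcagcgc
Ldhb: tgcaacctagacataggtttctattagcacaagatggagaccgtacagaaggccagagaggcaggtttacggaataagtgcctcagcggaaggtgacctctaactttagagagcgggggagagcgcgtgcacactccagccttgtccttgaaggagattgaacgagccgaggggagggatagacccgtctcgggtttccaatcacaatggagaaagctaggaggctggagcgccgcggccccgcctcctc
Ldha held 5 matches, the nearest starting 34 bases before the start site, and Ldhb held 0. Ldha has 2 start sites in the table, of which the most upstream was used, and Ldhb has 1. Genes were then counted with a match in the 250 bases before any of their listed start sites. Of the 38 members with an entry, 13 held ACGTG on either strand (34.2%), against 18.5% of 27025 genes. GGGCGG, the core of a GC box, was found for 25 of 38 members (65.8%) and for 35.4% of genes. These genes were all those with an entry, expressed here or not, and were not matched to the members by level. Such a match describes the letters of the window and is no measured site.

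**Figure D3:**
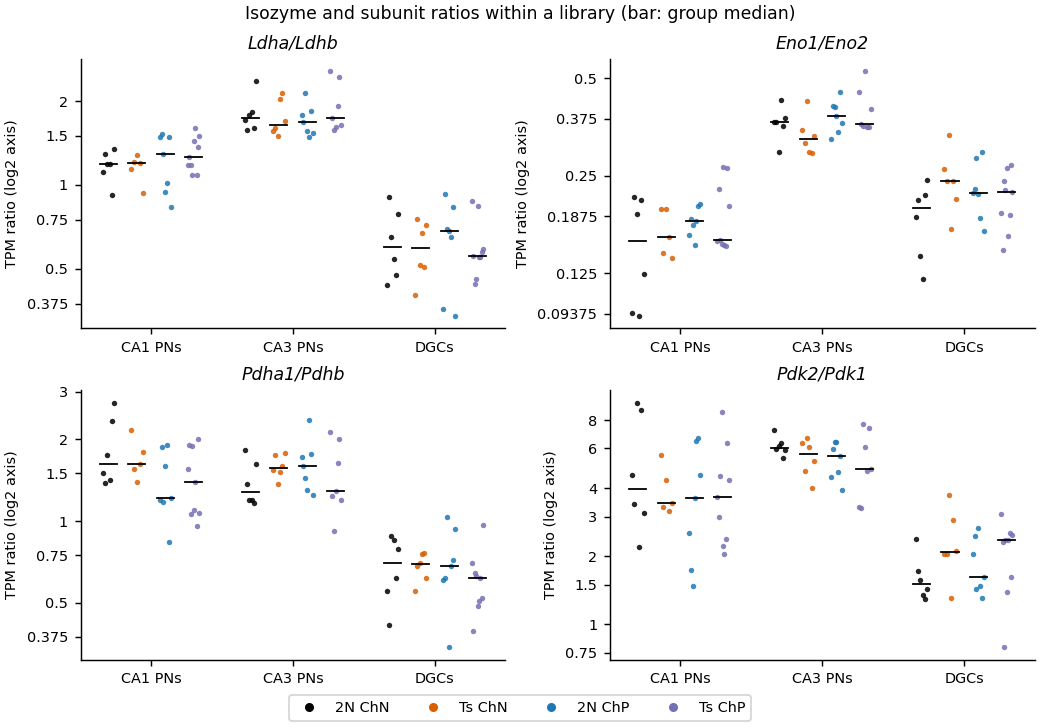
Ratios of TPM between 2 genes of 1 enzyme within each library (log2 axes), by population along the x axis and by genotype and diet in colour, with a bar at each group median. Ldha to Ldhb falls from CA3 PNs (2N ChN median 1.74) through CA1 PNs (1.19) to DGCs (0.597), Eno1 to Eno2 is highest in CA3 PNs (0.367), and Pdha1 to Pdhb (1.63, 1.28 and 0.703 in CA1 PNs, CA3 PNs and DGCs) and Pdk2 to Pdk1 are lowest in DGCs.

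Pyruvate enters mitochondria through a carrier made of Mpc1 and Mpc2. Mpc2, the only carrier subunit among the 39, went the other way from most members. It had 32.5, 39.6 and 50.2 CPM in CA3 PNs, 41.2, 50.6 and 71.3 CPM in CA1 PNs and 41.7, 57.1 and 64.1 CPM in DGCs, and the ranges overlapped. Its LFC for CA3 PNs over DGCs was -0.48 ± 0.15 (adjusted p = 0.00837, edgeR), and it was called in 3 of 4 groups.

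The pyruvate dehydrogenase complex joins a decarboxylase (Pdha1 and Pdhb), an acetyltransferase (Dlat), a dehydrogenase (Dld) and a binding protein (Pdhx). Pdha1 had 188, 213 and 229 CPM in CA3 PNs, 158, 191 and 306 CPM in CA1 PNs and 60.2, 83.6 and 94.8 CPM in DGCs. Every pyramidal library exceeded every DGC library, with LFCs of 1.33 ± 0.13 and 1.27 ± 0.13 (adjusted p of 2.56e-11 and 1.60e-10, edgeR), and CA1 and CA3 PNs were called different in no group. Pdhb, whose product pairs with that of Pdha1, had medians of 67.5, 59.3 and 55.8 CPM in CA3 PNs, CA1 PNs and DGCs, and its LFC for CA3 PNs over DGCs of 0.23 ± 0.14 was not called. The ratio of Pdha1 to Pdhb in TPM was 1.28 in CA3 PNs against 1.63 in CA1 PNs and 0.703 in DGCs. Dlat had medians of 120, 85.9 and 59.2 CPM and Dld of 124, 136 and 84.5 CPM, and both were called higher in both pyramidal populations than in DGCs in every group. Pdhx, at 46.8, 41.3 and 30.2 CPM, was called higher in CA3 PNs than in DGCs in 3 of 4 groups.

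The pyruvate dehydrogenase kinases switch the complex off by phosphorylating Pdha1. Pdk2 had 99.6, 115 and 127 CPM in CA3 PNs, 45.0, 57.3 and 115 CPM in CA1 PNs and 31.7, 43.2 and 67.3 CPM in DGCs. CA3 PNs lay above DGCs without overlap, at an LFC of up to 1.34 over the 4 groups (adjusted p = 1.97e-04 at most, edgeR), and were called above CA1 PNs in all 4. Pdk1, with medians of 35.5, 34.4 and 47.4 CPM, was called in neither comparison with CA3 PNs in any group and was lower in CA1 PNs than in DGCs in 2 groups. Pdk3, with medians of 37.5, 36.2 and 29.2 CPM, was called higher in CA1 PNs than in DGCs in 2 groups. Pdk2 made up 66.4% of the 3 kinases in CA3 PNs against 57.1% in CA1 PNs and 41.4% in DGCs by TPM.

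The TCA cycle genes differed less, and with exceptions. In the 2N ChN mice 8 of 13 were called higher in CA3 PNs than in DGCs and 1 lower, with a median LFC of 0.53. The shares of all genes were 21.8% and 21.5%. Between CA1 and CA3 PNs, 2 were called lower in CA1 PNs and 1 higher, near the 12.2% and 10.9% of all genes. Cs, the synthase that starts the cycle, had 152, 169 and 187 CPM in CA3 PNs, 116, 142 and 188 CPM in CA1 PNs and 101, 123 and 130 CPM in DGCs, and its LFC for CA3 PNs over DGCs was 0.47 ± 0.11. Of the NAD-dependent isocitrate dehydrogenase, the catalytic subunit gene Idh3a had 168, 226 and 245 CPM in CA3 PNs, 148, 154 and 204 CPM in CA1 PNs and 85.5, 104 and 113 CPM in DGCs. DGCs did not overlap with pyramidal neurons, and the LFC for CA3 PNs over DGCs was 1.05 ± 0.12. The other subunit genes were flatter. Idh3b had medians of 156, 187 and 134 CPM and was called between CA3 PNs and DGCs in no group, and Idh3g had 76.5, 76.2 and 67.0 CPM and was called there in 3 groups. Idh2, the mitochondrial enzyme that makes NADPH, was low everywhere, with medians of 8.30, 10.1 and 14.5 CPM. Its LFC for CA3 PNs over DGCs was -0.87 ± 0.28 (adjusted p = 0.0108, edgeR) in the 2N ChN mice and was called in 2 of 4 groups.

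Ogdh, which starts the 2-oxoglutarate dehydrogenase complex, had medians of 224, 185 and 126 CPM in CA3 PNs, CA1 PNs and DGCs and an LFC of 0.76 ± 0.11 for CA3 PNs over DGCs. Dlst, which carries its succinyl group, had 98.7, 104 and 94.5 CPM and was called in no group between CA3 PNs and DGCs. Succinyl-CoA synthetase has a common subunit, Suclg1, and an ATP-forming (Sucla2) or GTP-forming (Suclg2) partner. Suclg1 had medians of 114, 82.7 and 56.8 CPM. Sucla2 had 68.6, 106 and 126 CPM in CA3 PNs, 120, 126 and 181 CPM in CA1 PNs and 60.1, 66.9 and 87.2 CPM in DGCs, and it was the single member called higher in CA1 than in CA3 PNs in the 2N ChN mice (LFC 0.35 ± 0.13, adjusted p = 0.0496, edgeR). That call was lost without the CA2-rich CA1 PN libraries (LFC 0.28, adjusted p = 0.0946, edgeR) and in 5 of 6 fits that left out a mouse. Without mouse 17-21 the LFC was 0.25 (adjusted p = 0.158, edgeR). Suclg2 lay between 0.00 and 2.01 CPM in these libraries. Fumarase (Fh1) had medians of 56.3, 48.3 and 37.5 CPM and was called higher in CA3 PNs than in DGCs in all 4 groups.

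Malate dehydrogenase links the cycle with the cytosol through the malate-aspartate shuttle. The cytosolic Mdh1 had an LFC of 1.32 ± 0.16 for CA3 PNs over DGCs and of 0.97 ± 0.16 for CA1 PNs over DGCs, and the mitochondrial Mdh2 of 0.85 ± 0.11 and 0.69 ± 0.11. Both were called in every group. Pcx, pyruvate carboxylase, refills the cycle with oxaloacetate and is in textbooks an astrocyte enzyme. It had LFCs of 1.03 ± 0.23 for CA1 PNs over DGCs, called in all 4 groups, and of 0.70 ± 0.23 for CA3 PNs over DGCs, called in 2.

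The next question is whether trisomy changed these enzymes within a population. Few differed. With normal choline, CA1 PNs had 0 of 38 tested members with an adjusted p under 0.05 and 0 with an unadjusted p under 0.05 (against 0.00814% and 3.77% of all genes). That contrast kept as 2N the library of mouse 17-154, whose triplicated genes lay at 0.29, as in Ts libraries. It also kept the CA2-rich libraries. Only 1 of the 12286 genes tested in it had an adjusted p under 0.05, so it called hardly any gene of any kind. CA3 PNs had 3 higher and 1 lower in Ts (unadjusted, against 9.20% of all genes) and DGCs 3 higher and 0 lower (8.50%), and 0 members in either population had an adjusted p under 0.05, against 0.662% and 0.588% of all genes. With supplemented choline, CA1 PNs had 1 higher (3.60% of all genes, and 0.0490% adjusted), CA3 PNs 2 higher (4.99%, and 0.249% adjusted) and DGCs 2 higher (7.60%), and 1 of the latter, Aldoc, had an adjusted p under 0.05, as did 0.445% of all genes tested. In the ChN mice the LFCs of 38 members ran from -0.40 to 0.16 in CA1 PNs, from -0.40 to 0.38 in CA3 PNs and from -0.20 to 0.31 in DGCs. Their median standard errors were 0.17, 0.09 and 0.11. Changes of several standard errors could thus escape the adjusted test, most of all in CA1 PNs.

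**Figure D4:**
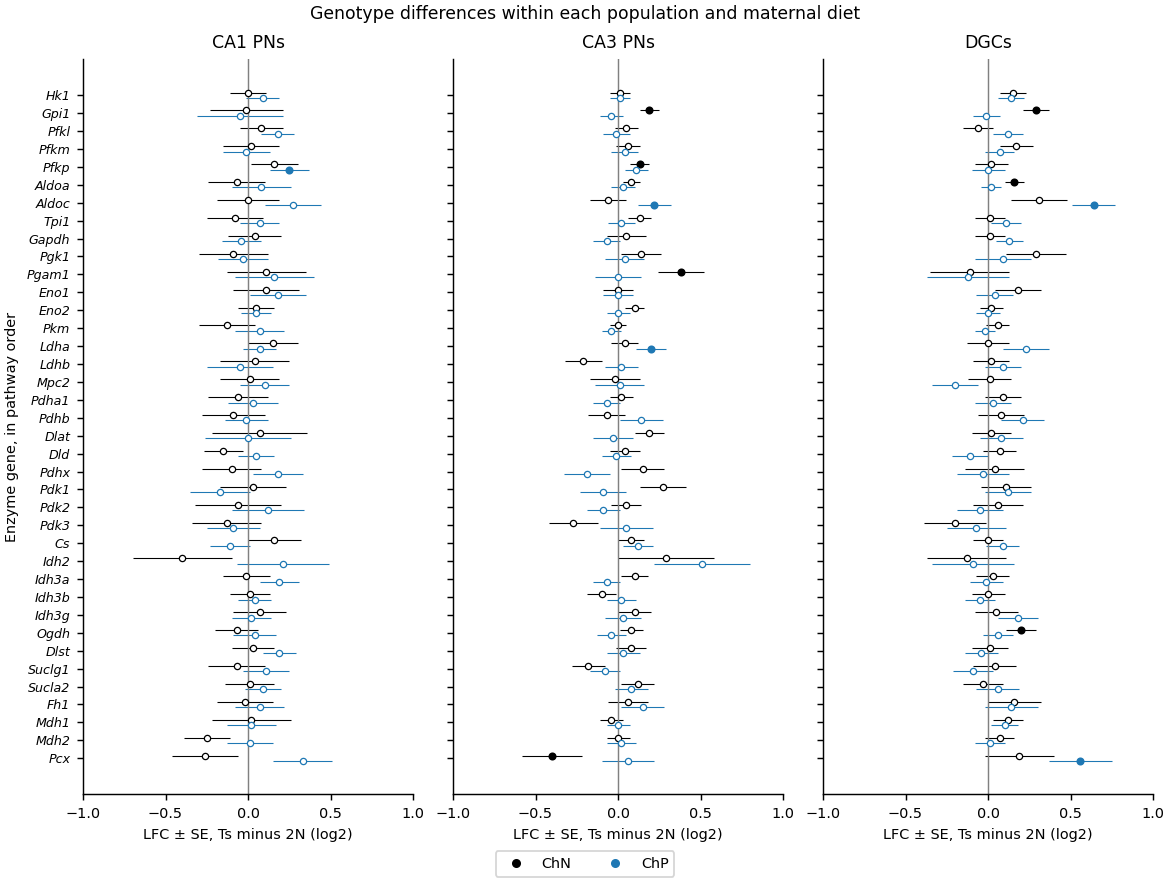
LFC of Ts minus 2N (x axis, log2) with its standard error as a bar for 38 genes in pathway order (Suclg2 left out), by population, with the normal diet in black and the supplemented diet in blue. Filled points have an unadjusted p under 0.05. Most points lie near 0, the widest spread of standard errors is in CA1 PNs, and Aldoc in DGCs lies farthest to the right, at 0.64 in the ChP mice.

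Aldoc was higher in Ts than in 2N DGCs of the ChP mice. The 7 2N libraries had 39.8, 43.9 and 50.9 CPM (lowest, median and highest) and the 9 Ts libraries 57.2, 69.8 and 95.5 CPM, so the genotypes did not overlap. The LFC was 0.64 ± 0.13 with an adjusted p of 0.00116 (edgeR), rank 26 of all genes by p. It ran from 0.58 to 0.68 with each of the 16 mice left out in turn, with an adjusted p under 0.05 in all 16 fits. In the ChN mice the 2N DGC libraries had 35.8, 40.6 and 64.5 CPM and the Ts libraries 32.5, 57.0 and 75.6 CPM, which overlapped, and the LFC of 0.31 ± 0.17 had an unadjusted p of 0.0849. The difference between the diets in this genotype effect was 0.34 ± 0.20 (unadjusted p = 0.0947, edgeR), so it was not shown to differ. In CA3 PNs of the ChP mice Aldoc had an LFC of 0.22 ± 0.10 (unadjusted p = 0.0391, edgeR) and overlapping ranges of 74.0 to 104 and 87.6 to 139 CPM. The gene lies at chr11:78213619-78218889 (GRCm39, plus strand), outside the triplicated stretches.

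Astrocyte markers were measured beside this result because of where Aldoc is best known. In DGCs of the ChP mice the 6 markers summed to 740, 823 and 1000 CPM in 2N and to 796, 980 and 1150 CPM in Ts, and these ranges overlapped. Slc1a3 had an LFC of 0.29 ± 0.11 (unadjusted p = 0.00962, adjusted p = 0.367, edgeR), Aldh1l1 of 0.54, Slc1a2 of 0.18, Gja1 of 0.17, Aqp4 of 0.16 and Gfap of -0.08. Of the 6 markers 5 thus had an LFC above 0, and none had an adjusted p under 0.05. Markers of inhibitory neurons moved as well. The 6 of them summed to 184, 225 and 273 CPM in 2N and to 242, 302 and 343 CPM in Ts, with 2 and 1 of the 6 at 0 in median. Gad2, which makes GABA, had an LFC of 1.02 ± 0.20 (adjusted p = 0.0101, edgeR), Slc32a1 of 0.72, Pvalb of 0.22 and Gad1 of 0.19, of which only Gad2 had an adjusted p under 0.05. The oligodendrocyte marker Mag had an LFC of 1.69 ± 0.59 (adjusted p = 0.273, edgeR), while the 5 oligodendrocyte markers summed to medians of 198 and 207 CPM. Pcx had an LFC of 0.56 ± 0.19 (unadjusted p = 0.00535, adjusted p = 0.274, edgeR), with 6.56, 19.3 and 25.8 CPM in 2N and 22.2, 25.8 and 36.9 CPM in Ts. The part of any of these cells in the values of Aldoc and Pcx was not tested.

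Gpi1 had the smallest p among the members in the ChN mice, in both CA3 PNs and DGCs. In DGCs the 2N libraries had 185, 210 and 230 CPM and the Ts libraries 244, 252 and 294 CPM, which did not overlap. The LFC was 0.29 ± 0.08 (unadjusted p = 3.75e-04, adjusted p = 0.0566, edgeR), and the adjusted p ran from 0.0473 to 0.0879 over 7 other settings. In CA3 PNs the libraries had 477, 541 and 590 CPM in 2N and 580, 614 and 646 CPM in Ts, with an LFC of 0.19 ± 0.06 (unadjusted p = 0.00368, adjusted p = 0.208, edgeR), and the ranges met between 580 and 590 CPM. With the library of mouse 15-145 under its own Ts label, the LFC of Gpi1 in CA3 PNs was 0.11 (unadjusted p = 0.108, edgeR). In the ChP mice the medians for DGCs were 247 CPM in 2N and 228 CPM in Ts. The genotype effect in DGCs differed between the diets by -0.30 ± 0.11 and in CA3 PNs by -0.22 ± 0.09 (unadjusted p of 0.00870 and 0.0229, edgeR), and neither had an adjusted p under 0.05. The ChP and ChN libraries come from separate sets of mice.

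The other members with an unadjusted p under 0.05 failed the adjustment. In CA3 PNs of the ChN mice Pgam1 had 27.8, 31.1 and 36.2 CPM in 2N and 32.9, 42.4 and 47.2 CPM in Ts (LFC 0.38 ± 0.14, adjusted p = 0.299, edgeR). Pcx had 21.5, 33.0 and 44.1 CPM in 2N and 20.8, 24.3 and 27.5 CPM in Ts (LFC -0.40 ± 0.18, adjusted p = 0.449, edgeR). Pfkp had 359 to 431 CPM in 2N and 402 to 445 CPM in Ts (LFC 0.13 ± 0.06, adjusted p = 0.537, edgeR), and all 3 had overlapping ranges. Markers of other cells moved in the same comparison. Astrocyte markers in CA3 PNs of the ChN mice had LFCs of -0.55 for Gfap, -0.42 for Aqp4, -0.40 for Gja1, -0.20 for Slc1a3, 0.01 for Slc1a2 and 0.27 for Aldh1l1, and their summed levels overlapped (1880 to 2670 CPM in 2N, 1730 to 2580 CPM in Ts). All 6 inhibitory markers had an LFC below 0, from -1.87 for Sst to -0.43 for Gad1, and summed to 127, 244 and 310 CPM in 2N and 116, 144 and 155 CPM in Ts. None of these markers had an adjusted p under 0.05, and their part in the values of Gpi1, Pgam1, Pcx and Pfkp was not tested. In DGCs of the ChN mice Aldoa had 750, 848 and 909 CPM in 2N and 887, 924 and 1070 CPM in Ts (LFC 0.16 ± 0.06, adjusted p = 0.362, edgeR), and Ogdh 115 to 142 and 129 to 167 CPM (LFC 0.20 ± 0.09, adjusted p = 0.536, edgeR). In the ChP mice Pfkp in CA1 PNs had an LFC of 0.25 ± 0.12 (unadjusted p = 0.0498, edgeR) and Ldha in CA3 PNs one of 0.20 ± 0.09 (adjusted p = 0.870, edgeR). The genotype differences in the pyruvate dehydrogenase complex and its kinases had no unadjusted p under 0.05 in any population on either diet.

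**Figure D5:**
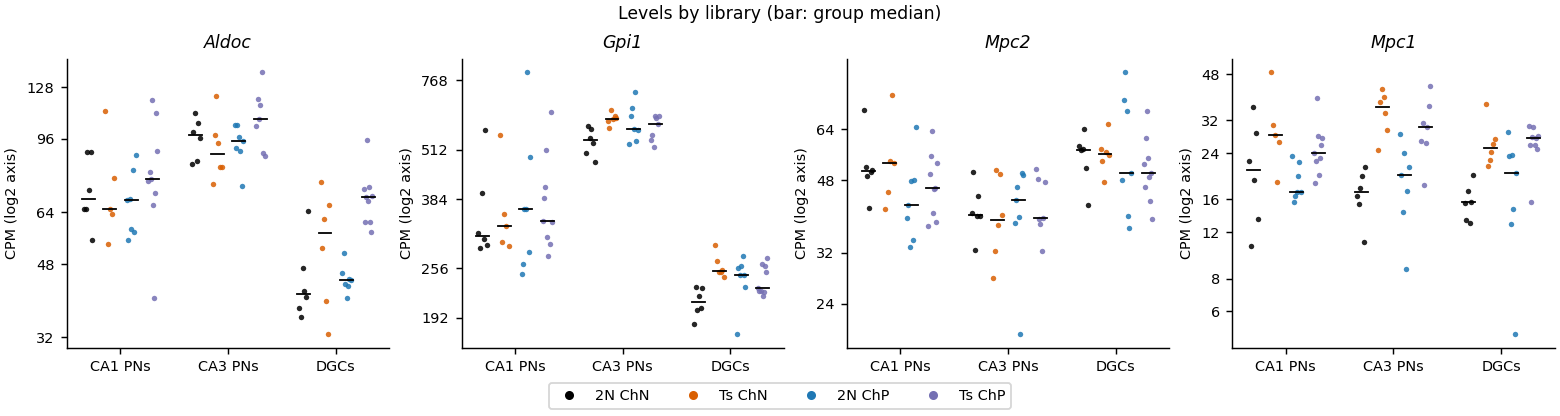
CPM (log2 axes) of Aldoc, Gpi1, Mpc2 and its partner Mpc1 in each library, by population along the x axis and by genotype and diet in colour, with a bar at each group median. Ts ChP DGCs lie above 2N ChP DGCs for Aldoc (57.2 to 95.5 against 39.8 to 50.9 CPM) and Ts ChN DGCs above 2N ChN DGCs for Gpi1 (244 to 294 against 185 to 230 CPM), while Mpc1 but not Mpc2 separates the genotypes in CA3 PNs and DGCs of the ChN mice.

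Mpc1, the other subunit of the pyruvate carrier, is not among the 39 genes and was singled out after its values were seen. It lies at chr17:8501736-8516498 (GRCm39), in the part of chromosome 17 that Ts mice carry in an additional copy. In CA3 PNs of the ChN mice it reached a median of 17.1 CPM and at most 21.2 CPM in 2N, and a median of 35.9 CPM and at least 24.7 CPM in Ts, with no overlap. The LFC was 1.06 ± 0.17 (adjusted p = 1.74e-04, edgeR). With normal choline it was 0.74 in DGCs and 0.46 in CA1 PNs, and with supplemented choline 0.35 in DGCs, 0.45 in CA1 PNs and 0.60 in CA3 PNs, none with an adjusted p under 0.05. The TPM ratio of Mpc1 to Mpc2 in CA3 PNs of the ChN mice was 0.411 in 2N (0.186 to 0.560) and 0.853 in Ts (0.668 to 1.69), whereas Mpc2 itself had 0 calls by genotype.

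The last question is whether the maternal diet changed these enzymes in the adult offspring. No member had an adjusted p under 0.05 for the diet in Ts mice, for the diet in 2N mice or for the difference between them in any population (edgeR). The shares of all genes at that threshold were 0 apart from 0.0120% for the diet in 2N CA3 PNs and 0.00605% in 2N DGCs. At an unadjusted p under 0.05, CA1 PNs had 0 members in Ts (3.05% of all genes) and 0 in 2N (3.27%). CA3 PNs had 2 in Ts (4.19%) and 3 in 2N (4.90%), and DGCs had 2 in Ts (3.81%) and 2 in 2N (5.82%). In Ts mice these were Aldoc in both CA3 PNs (LFC of ChP minus ChN 0.26 ± 0.11) and DGCs (0.34 ± 0.13), Pdhx in CA3 PNs (-0.33 ± 0.14) and Gapdh in DGCs (0.17 ± 0.08). In 2N mice they were Gpi1 in CA3 PNs (0.16 ± 0.07) and DGCs (0.18 ± 0.08), Ldha (-0.17 ± 0.08) and Ldhb (-0.27 ± 0.10) in CA3 PNs and Aldoa in DGCs (0.12 ± 0.06). The difference between genotypes in the diet effect had 1 member in CA1 PNs (3.22% of all genes), 1 in CA3 PNs (4.87%) and 2 in DGCs (3.97%) at the unadjusted threshold. They were Pcx in CA1 PNs (0.56 ± 0.27), Gpi1 in CA3 PNs and DGCs as given above, and Suclg2 in DGCs (3.18 ± 1.28), whose levels of 0.00 to 4.05 CPM leave few reads to count. These counts of 0 to 3 among 39 members are near the shares of all genes.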

How the data were processed

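RNA of laser-captured CA1 PNs, CA3 PNs and DGCs was sequenced after SMARTer Stranded Total RNA-Seq Pico v3 library preparation. According to the authors' methods and the submitters' processing notes, reads were trimmed (Trimmomatic 0.39), checked (FastQC 0.11.9, Picard 2.26.2), aligned with STAR to GRCm39 (mm10 is also named) and quantified with RSEM. The deposited values are expected counts and TPM per gene and library. RSEM divides reads among similar genes, so genes with near-identical copies (Eno1 and Eno1b) are uncertain.

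The 39 members, the 61 other pathway genes and the marker lists were chosen with earlier results of these data known. Expected counts were rounded and genes over 0.1 CPM in at least 10 libraries entered edgeR 4.0.16 under R 4.3.3 (TMM scaling, glmQLFit and the two-sided glmQLFTest), with Benjamini-Hochberg adjustment over all genes tested. The threshold for adjusted and unadjusted p was 0.05. Comparisons between populations used mouse as a block. The labels give the mouse of each library, and deviations of libraries of the same mouse had median correlations of 0.04, 0.07, 0.09 and 0.05 in 2N ChN, Ts ChN, 2N ChP and Ts ChP, against -0.01, -0.02, -0.01 and -0.01 between mice. The study's own mixed model and covariates were not used. Values after ± are standard errors derived from the LFC and the F value of its test. With mouse as a block, between populations, they reflect the spread within mice, and in the other comparisons the spread between mice. Total counts per library are given in the report. The models were checked on simulated counts. Alternatives were DESeq2 1.42.0, library totals, other filters, 1 surrogate variable (sva 3.50.0), no block, the label of mouse 15-145, and leaving out each mouse. Levels by library group were given for members with an adjusted p under 0.05 between populations in the 2N ChN mice. There were 33, and the limit of 30 in pathway order left the levels of Mdh1, Mdh2 and Pcx out of that part. For genotype and diet, members with an adjusted p under 0.05 or at most the 5 smallest unadjusted p were named.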

Additional observations from a re-analysis of the deposited data

Results flagged for a closer look

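In groups of 4 to 10 libraries, 101 levels of the 33 members with a call between populations in the 2N ChN mice were screened for a library whose gap to its nearest neighbour was large for the range of its group. There were 12 such levels, and chance gives about 1 in 20 groups. The screen did not take in every group of these members, so flags cannot be compared between genotypes or diets. The screen covers Mdh1, whose levels are not printed in the report. The CA1 PN library of 2N ChN mouse 17-21, which was also poor in CA1 markers, was the highest of its group in 7 of the 12. It had 88.2 CPM of Pgk1, 184 CPM of Eno1, 1260 CPM of Pkm, 180 CPM of Dlat, 204 CPM of Idh3a, 181 CPM of Sucla2 and 606 CPM of Mdh1. Without the CA1 PN libraries rich in CA2 markers, this one among them, 22 members were called lower in CA1 than in CA3 PNs in the 2N ChN mice.

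Among the others, mouse 15-145 had the highest Mpc2 in CA1 PNs, at 71.3 CPM, and the highest Mdh1 in DGCs, at 218 CPM. Mouse 17-56 had the lowest Pgk1 in CA3 PNs, at 42.5 CPM, and the highest Idh2 there, at 14.7 CPM. Mice 15-145 and 17-56 are 2N ChN. The highest Aldoc in Ts ChP DGCs was 95.5 CPM, in mouse 15-199, and the genotype difference kept an adjusted p under 0.05 (edgeR) with each of the 16 mice left out.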

How the results depend on the processing

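Counts of called members stayed within 1.5 times the main count in 85 of 94 comparisons refitted under other settings. The exceptions were counts at an unadjusted p under 0.05. For genotype in ChN CA1 PNs (0 in the report), 1 surrogate variable gave 3 and leaving out the 10 CA2-rich libraries 2. For genotype in ChP CA1 PNs (1), DESeq2 and library totals gave 0. Without the CA2-rich libraries the diet in Ts CA1 PNs (0) gave 2, the diet in 2N CA1 PNs (0) gave 1 and the interaction in CA1 PNs (1) gave 2. Library totals gave 2 for the diet in 2N CA1 PNs, and the label of mouse 15-145 gave 2 for the interaction in CA3 PNs (1). The cause was not tested. Over 71 calls of a single member in a single comparison, 341 of 367 refits kept the direction and the side of the threshold, as did 406 of 436 with a mouse left out. None reversed.

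With 1 mouse left out in turn, genotype counts ran from 0 to 2 in ChN CA1 PNs (2 without mouse 17-21), 3 to 8 in ChN CA3 PNs (8 without 16-357), 2 to 6 in ChN DGCs (6 without 17-157), 0 to 3 in ChP CA1 and in ChP CA3 PNs, and 2 to 4 in ChP DGCs (4 without 14-125). Diet counts ran from 0 to 2 in Ts CA1 PNs, 0 to 3 in 2N CA1 PNs, 1 to 3 in Ts and in 2N CA3 PNs, 1 to 3 in Ts DGCs and 0 to 3 in 2N DGCs. Interaction counts ran from 0 to 1 in CA1 PNs, 1 to 4 in CA3 PNs and 2 to 4 in DGCs. Called members between CA1 and CA3 PNs in 2N ChN ran from 9 to 21. With no replicate block, the paired comparisons of populations in 2N ChN had 13 called members for CA1 against CA3 PNs, 25 for CA1 PNs against DGCs and 31 for CA3 PNs against DGCs.

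Limits. The genotype effects are small beside the standard errors in CA1 PNs, where marker levels differ between captures. The genotype contrasts of CA1 PNs kept the labels of mice 17-154 (2N) and 16-272 (Ts), whose triplicated genes lay at 0.29 and -0.10. The lowest library held 358355 expected counts, so low members such as Suclg2 and Idh2 rest on few reads.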

Other observations

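Beyond the 39 enzymes, 61 other genes of glucose and pyruvate metabolism were listed, of which 49 could be tested in the 2N ChN mice. For CA3 PNs over DGCs, 21 were higher and 5 lower at an adjusted p under 0.05 (edgeR), against 21.8% and 21.5% of all genes, with a median LFC of 0.43. Me1, the cytosolic malic enzyme that makes NADPH, differed most. It had 58.7, 68.5 and 72.0 CPM in CA3 PNs (lowest, median and highest), 11.4, 21.5 and 57.3 CPM in CA1 PNs and 0.00, 1.18 and 2.43 CPM in DGCs, so DGCs did not overlap with the pyramidal neurons. Pfkfb3, which makes the activator of phosphofructokinase, had 106, 116 and 147 CPM in CA3 PNs, 13.4, 27.1 and 37.8 CPM in CA1 PNs and 14.3, 18.3 and 23.7 CPM in DGCs. CA3 PNs stood apart from both, with an LFC of 2.63 over DGCs. Pck2, the mitochondrial carboxykinase, had an LFC of 2.62, Slc25a1, the citrate carrier, of 1.91, and Idh1, the cytosolic isocitrate dehydrogenase, of 1.69 for CA3 PNs over DGCs.

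A few went the other way. Gpd1, the glycerol phosphate dehydrogenase of the shuttle, had 14.7, 37.6 and 44.8 CPM in CA3 PNs, 36.3, 71.1 and 83.6 CPM in CA1 PNs and 96.6, 116 and 125 CPM in DGCs, an LFC of -1.73 for CA3 PNs over DGCs. Pgam2, the muscle mutase, had an LFC of -2.80 at medians of 0.640 and 5.39 CPM. For CA1 over CA3 PNs, Tkt, transketolase of the pentose phosphate pathway, had an LFC of -0.98 (medians of 55.5 and 114 CPM), and Slc16a7, a monocarboxylate carrier of neurons, of 0.92 (medians of 96.8 and 53.3 CPM).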
